A study of Mus musculus with 165 samples.

Results

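Heat shock genes were followed through the differentiation of PUER cells, from undifferentiated cells to 168h after the activation of PU.1 in 2 cytokines. The 10 genes were chosen by name out of the 36255 genes of the expression table: *Hspa1a* and *Hspa1b*, *Hspa8* and *Hsph1*, *Hsp90aa1* and *Hsp90ab1*, *Dnajb1*, *Hspd1* and *Hspe1*, and *Hsf1*. PUER cells are an IL3-dependent progenitor line from Spi1-/- mice, which lack PU.1, and carry a transgene for PU.1 joined to the hormone-binding part of an estrogen receptor, which 4-hydroxytamoxifen (OHT) switches on. Undifferentiated cells were kept in 5 ng/ml IL3 without OHT (3 libraries) and are the start of both time courses. For the macrophage course, 200 nM OHT was added in IL3, and 27 time points from 1h to 168h were sequenced (IL3-OHT, 81 libraries). For the neutrophil course, IL3 was replaced by 10 ng/ml GCSF for 48 h (GCSF 0h, 3 libraries), and 27 time points followed the addition of 100 nM OHT in GCSF (GCSF-OHT, 78 libraries). The cytokine therefore differs between the courses together with the dose of OHT. Cells for GCSF 0h were also washed, reseeded and cultured for 48 h. The same undifferentiated libraries stand for the time before those 48 h and for 0h in IL3. Washing, reseeding and time in culture therefore cannot be told apart from the change of cytokine at GCSF 0h. All groups are 1 cell line of 1 genotype with 1 transgene, and libraries of a time point came from wells of the same plate, so that p-values measure the spread between wells and the plate cannot be told apart from the time point. Part of the medium was exchanged and OHT was added again at 40h, 88h and 136h, and cells were lifted with trypsin at the time points after 24h.

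Heat shock proteins are molecular chaperones: they bind proteins that are not folded and help them to fold, to assemble or to reach an organelle. The Hsp70 proteins work with J-domain proteins such as Dnajb1, which deliver clients and start ATP hydrolysis, and with exchange factors such as Hsph1, while the Hsp90 proteins mature kinases and steroid receptors at a later step. Hsf1 is the transcription factor that binds heat shock elements, repeats of the letters nGAAn in alternating orientation, and raises the inducible members when unfolded protein accumulates; it is held inactive by chaperones in unstressed cells.

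The values are normalized counts. Between 14600246 and 33147945 reads per library lay on genes (median 21960878), and 3 reads, taken as the floor, were worth 1.96 to 5.51 normalized counts; this floor covers counting error only. All 10 genes passed the filter on low values, and the library with the fewest reads on a member held 58 reads, on *Hspa1a*. The spread between the libraries of a time point was widest for *Hspa1a*, with a median coefficient of variation of 15.5%, and narrowest for *Hsp90ab1*, with 2.22%. In bulk RNA, fewer cells that express a gene and less of its RNA per cell cannot be told apart. Of the markers of other blood cells, all 4 T cell genes (*Cd3e*, *Cd3g*, *Cd4* and *Cd8a*) and *Ms4a1*, *Pax5* and *Hbb-bs* had at most 3 reads in every library. Of 4 genes a list, 1 B cell gene, 1 to 2 erythroid genes, 2 genes of mast cells and basophils and 4 of fibroblasts and stroma had more than 3 reads in some library, with summed levels over the libraries of 0 to 19.5, 1.71 to 65.3, 21.1 to 326 and 0 to 89.5; their part in the results was not tested. Of 5 progenitor markers (*Kit*, *Flt3*, *Gata2*, *Sox4* and *Cd34*), *Cd34* was at that level in undifferentiated cells, while the summed level of the 5 was 11252 to 12518. *Spi1*, which encodes PU.1, was at 4482 to 13387 in all libraries. Since the cells carry PU.1 as a transgene, this level was taken as a check of it, and the origin of the reads was not tested. The summed level of 8 immediate-early genes (*Fos*, *Fosb*, *Jun*, *Junb*, *Atf3*, *Egr1*, *Dusp1* and *Ier2*), which respond to handling within minutes, is given beside some results. It is not a measure of handling alone: the study counts *Egr1* among the factors implicated in macrophage differentiation. *Egr1* was lower in GCSF than in IL3 (log2 fold change -2.96). The sum also hides opposite changes: at IL3-OHT 168h *Fos* (2.75) and *Egr1* (1.33) were higher than in undifferentiated cells, *Atf3* (-3.42) and *Fosb* (-2.29) lower. The 6 libraries of 120h carry library names of another set than the rest.

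Sequences upstream of members are shown because the heat shock element is the sequence that Hsf1 binds. In GRCm38.p6 (RefSeq), windows from 250 bases before to 50 bases after the start of the gene were at hand for 6 of the 10 members. A core of the element, GAANNTTC or TTCNNGAA (each is its own reverse complement, so that a match lies on both strands, and the 2 overlap where 3 units follow one another), was found in 5 of those 6: *Hspa1a*, *Hspa1b*, *Hsph1*, *Hspd1* and *Hspe1*. It was found in 15.1% of all 32817 windows of this length, and the longer form with 3 units (GAANNTTCNNGAA or TTCNNGAANNTTC) in 0.603%. Neither window of *Dnajb1* held these letters. The 250 bases before the start are printed in the direction of the gene, with matches in capitals, for the inducible Hsp70 pair and for *Hspe1*.
Hspa1a (chr17:34972157-34972406, minus strand): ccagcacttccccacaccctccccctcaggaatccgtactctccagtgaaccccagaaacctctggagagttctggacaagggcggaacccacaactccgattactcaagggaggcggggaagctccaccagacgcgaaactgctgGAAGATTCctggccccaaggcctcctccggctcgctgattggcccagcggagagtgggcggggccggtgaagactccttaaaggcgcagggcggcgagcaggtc
Hspa1b (chr17:34959239-34959488, minus strand): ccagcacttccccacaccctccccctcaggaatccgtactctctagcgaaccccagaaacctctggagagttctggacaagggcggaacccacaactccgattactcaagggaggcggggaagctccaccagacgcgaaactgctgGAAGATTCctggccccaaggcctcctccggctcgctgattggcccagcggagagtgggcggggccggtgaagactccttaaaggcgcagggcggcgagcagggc
Hspe1 (chr1:55087898-55088147, plus strand): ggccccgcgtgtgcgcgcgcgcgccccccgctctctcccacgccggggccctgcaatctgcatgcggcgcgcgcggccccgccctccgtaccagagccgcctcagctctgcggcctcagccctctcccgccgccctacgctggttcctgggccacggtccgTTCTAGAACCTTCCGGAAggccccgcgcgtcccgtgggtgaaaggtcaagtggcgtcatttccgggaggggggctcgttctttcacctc

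The windows of *Hspa1a* and *Hspa1b* held 1 match each, the same letters at base -104 from the start. They differed at 4 of 300 positions, counted from the 5′ end of the window (C44T, T47C, T249G and C276T, *Hspa1a* first), of which none lies in the match. The 2 genes lie on the minus strand of chromosome 17, 9951 bases apart (chr17:34969190-34972156 and chr17:34956436-34959238 of GRCm38), and their coding sequences were identical at 99.43% of 1926 aligned positions. *Hspe1* (chr1:55088132-55091307) and *Hspd1* (chr1:55077835-55088243) lie head to head on chromosome 1 and overlap by 112 bases, and the run of capitals before *Hspe1* lies, on the other strand, in a window of *Hspd1* too. It holds 3 overlapping matches in 18 bases. The last bases printed before *Hspe1* lie inside the coordinates given for that gene, which place its start further upstream. *Hsph1* held a match before its start and the 3-unit form after it, in the stretch that is transcribed, which is not printed. A match is a run of letters and not a measurement of binding.

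Near-identical copies limit 2 of the values. *Hspa1a* shares 67.6% of the 31-base words of *Hspa1b*, so that reads may be divided between them, and the sum of both is given beside the calls of this pair. *Hspa8* has a processed pseudogene, *Gm15459* (chr5:5781615-5783555), which shares 91.9% of its 31-base words with *Hspa8* and was listed at a mean of 12118 beside 14680 for *Hspa8*. Across libraries the ratio of *Gm15459* to *Hspa8* ran only from 0.738 to 0.937. The sum of the 2 is therefore given beside the calls of *Hspa8*. The other pseudogenes of members were listed at no more than 0.436% of the level of the member.

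Per kilobase of transcript, the members covered a wide range in undifferentiated cells. *Hsp90ab1*, the constitutive cytosolic Hsp90, was highest at a normalized count of 16080.0 per kb, followed by the inducible Hsp90 *Hsp90aa1* at 6607 and the constitutive Hsp70 *Hspa8* at 6026. The mitochondrial chaperonin *Hspd1* and its lid *Hspe1* followed at 1729 and 1499.9 per kb. *Dnajb1* (636), *Hsf1* (474) and *Hsph1* (299.8) were lower, and the inducible Hsp70 genes were lowest, *Hspa1b* at 172.5 and *Hspa1a* at 92.8 per kb. The inducible pair was also the most variable over the 56 groups of cytokine and time point: the highest group mean of *Hspa1a* was 11.6 times its lowest, that of *Hspa1b* 9.79 times, and that of *Hsf1*, the least variable, 1.91 times. In the order of the 56 group means, most neighbours overlapped in their libraries: 54 of 55 neighbouring pairs for *Hspa1a* and *Hspa1b*, and 46 of 55 for *Hsp90ab1*, which was the most finely resolved.

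Differences were tested by limma on log2(normalized count + 1). Calls required that the adjusted p (Benjamini-Hochberg over all genes of a comparison) be under 0.05 and the log2 fold change over 0.58 in size. On this scale the changes of the lowest genes are understated. For a course the call required that the fitted means differ between its time points and that the time point farthest from the start pass the fold change. Over the whole IL3 course, 10 of 10 members were called, where 69.7% of 17414 genes were (9 with upper-quartile scaling, where *Hsp90ab1* was at 0.576, inside the fold threshold), and over the GCSF course 7 of 10 (6 without the replicates numbered 2), where 47.7% were; *Hspa8*, *Hsp90aa1* and *Hsf1* passed the adjusted p in GCSF and not the fold change. After the GCSF pre-treatment 3 of 10 were called, all lower, where 33.7% of genes were called and 20.7% were lower. At 168h against undifferentiated cells, 3 of 10 were lower in IL3, where 25.4% of genes were called and 15.2% were lower, and 6 of 10 were lower in GCSF, where 39.1% and 23.6% were. From GCSF 0h to 168h, 3 of 10 were lower, where 24.8% and 12.6% were. In none of these 4 comparisons was a member called higher. The median log2 fold change of the members at 168h was -0.43 in IL3 and -0.69 in GCSF, beside -0.03 and -0.11 over all genes, and after the pre-treatment it was -0.29 beside -0.09. The 3 comparisons with undifferentiated cells share those 3 libraries. Members called are marked in the heat map of changes.

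**Figure D1:**
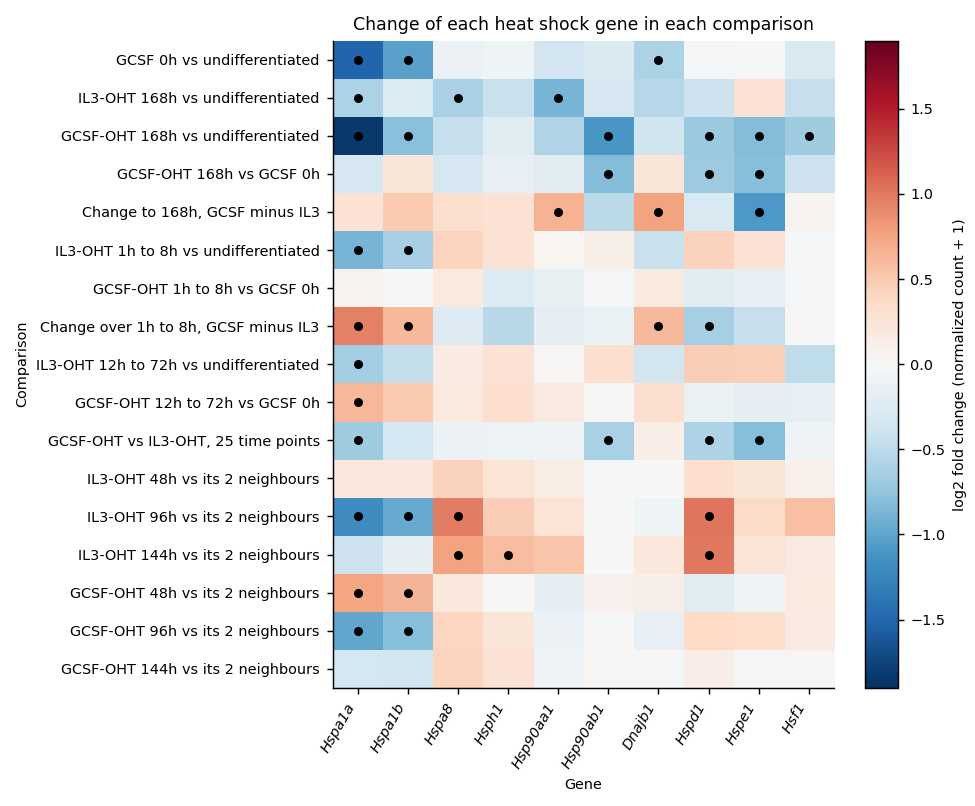
Heat map of the log2 fold change of log2(normalized count + 1) of the 10 heat shock genes (columns) in 17 comparisons (rows), with a dot where limma called the member. The endpoint comparisons are mostly blue, *Hspa1a* carries the darkest blue squares, at -1.83 in GCSF at 168h, and *Hspa8* and *Hspd1* are red at IL3-OHT 96h and 144h against their neighbours.

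The inducible Hsp70 genes *Hspa1a* and *Hspa1b* are kept low in resting cells and rise with unfolded protein. Both were lower at GCSF 0h than in undifferentiated cells, before any OHT. *Hspa1a* had normalized counts of 302, 241 and 282 in the 3 undifferentiated libraries and of 83.2, 88.5 and 120.2 at GCSF 0h, and *Hspa1b* of 480.2, 485 and 486 and of 253, 213 and 246. Every GCSF 0h library lay below every undifferentiated one for both genes. The log2 fold change was -1.504 (standard error 0.22, limma adjusted p = 2.20e-09) for *Hspa1a*, -1.03 (standard error 0.15, limma adjusted p = 4.13e-09) for *Hspa1b* and -1.18 (standard error 0.15, limma adjusted p = 5.01e-12) for the sum of both. The summed level of the 8 immediate-early genes was lower as well, 4529 to 4980.2 at GCSF 0h against 29935 to 31084 in undifferentiated cells, and its part in the result was not tested.

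In the first hours after OHT in IL3, *Hspa1a* and *Hspa1b* fell and came back. The mean of *Hspa1a* was 217 at 1h, 121.2 at 2h, 102.9 at 3h and 120.4 at 4h, and then 226 at 8h and 256 at 12h. The mean of *Hspa1b* was 381, 259, 236 and 285 at 1h to 4h and 462 and 508 at 8h and 12h. Over the mean of 1h to 8h against undifferentiated cells, these 2 of 10 members were called, where 12.4% of genes were: *Hspa1a* changed by -0.88 (standard error 0.17, limma adjusted p = 5.98e-06), *Hspa1b* by -0.63 (standard error 0.12, limma adjusted p = 3.77e-06) and the sum by -0.71, called. Over the same hours in GCSF against GCSF 0h, limma called 0 of 10 members, where 4.09% of genes were called. Of the members, 6 of 10 had an unadjusted p under 0.05, and edgeR and DESeq2 called 0 and 0. The pair moved both ways in GCSF too, which a mean over these hours can hide. *Hspa1a* had means of 97.3 at GCSF 0h, 66.7 at 2h and 151 at 8h, and *Hspa1b* of 238, 162 and 410. The libraries of 0h and 2h overlapped for *Hspa1a* and not for *Hspa1b*. The difference between the cytokines was itself called for both genes (0.95 for *Hspa1a*, standard error 0.24, adjusted p = 7.91e-04 by limma; 0.61 for *Hspa1b*, standard error 0.17, adjusted p = 0.00204) and for the sum (0.74), and 4 of 10 members were called in it where 10% of genes were (2 of 10 without the replicates numbered 1). Without the replicates numbered 3 the difference for *Hspa1b* was 0.56 (adjusted p = 0.0488) by limma, inside the fold threshold. Since the pair was already lower at GCSF 0h, GCSF-OHT and IL3-OHT did not start from the same level. At 3h the libraries of *Hspa1a* read 82.4, 137.2 and 98.4 in GCSF and 96.4, 110.4 and 102.01 in IL3, ranges that overlap.

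The highest levels of the pair came late, as the plot of both genes over time shows. In IL3, the lowest group means of the course were at 32h, 87.9 ± 7.30 (SD, n = 3) for *Hspa1a* and 166 ± 16.5 (SD, n = 3) for *Hspa1b*, and the highest at 88h, 774 ± 78.02 (SD, n = 3) and 1588 ± 134 (SD, n = 3). The libraries of *Hspa1a* at 72h read 365, 212.2 and 342, those at 80h 713, 696 and 639.9, and those at 88h 809.8, 684 and 828. Those of 80h and 88h overlapped with each other and not with those of 72h. From 72h to 80h the log2 fold change was 1.19 (standard error 0.22, limma adjusted p = 7.56e-06) for *Hspa1a*, 0.92 (standard error 0.15, limma adjusted p = 7.86e-07) for *Hspa1b* and 1.00 for the sum. At 168h in IL3, *Hspa1a* was back at 221, 148 and 180.03, -0.60 against undifferentiated cells (standard error 0.22, adjusted p = 0.0172 by limma). That call rests on the libraries numbered 2 and 3: the change was -0.55 (adjusted p = 0.0548) without the replicates numbered 2 and -0.58 (adjusted p = 0.128) without those numbered 3, by limma. *Hspa1b* was at 475, 421 and 325, which did not pass the fold change (-0.27, standard error 0.15, limma adjusted p = 0.147); nor did the sum (-0.37, standard error 0.15, limma adjusted p = 0.0258). Over the mean of 12h to 72h in IL3, *Hspa1a* was the 1 member of 10 called (-0.64, standard error 0.16, limma adjusted p = 3.58e-04), where 29.9% of genes were; the sum did not pass the fold change (-0.51, standard error 0.11, limma adjusted p = 1.77e-05).

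In GCSF the pair rose and fell repeatedly between time points 8 h apart. For *Hspa1b* the 3 libraries of 80h read 315, 322 and 269.5, those of 88h 977, 713 and 816 and the 2 of 96h 368 and 255. The 3 of 104h read 333, 342 and 362, the 2 of 112h 984 and 929, and the 3 of 120h 385, 329 and 381. At 128h the values were 637, 714 and 622, followed by 909, 1417 and 973 at 136h and then 580.1, 431 and 427 at 144h. No library of 88h, 112h or 136h overlapped with one of the time point before or after it. For *Hspa1b* the steps were 1.46, -1.43, 1.47, -1.39, 0.85, 0.71 and -1.18 on the log2 scale, all called (the largest limma adjusted p of the 7 was 0.00354). *Hspa1a* took the same steps at lower counts, from 113, 137.4 and 113 at 104h to 293 and 312 at 112h and 134, 85.8 and 148.5 at 120h, except that its step from 128h to 136h was not called. The sum was called at all 7 of these steps, at a log2 fold change of 0.68 from 128h to 136h. The 120h libraries are those with library names of another set, and the summed immediate-early genes were 12585 to 14695 at 104h, 11836 to 12985 at 112h and 12449 to 13343 at 120h; their part in these steps was not tested.

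**Figure D2:**
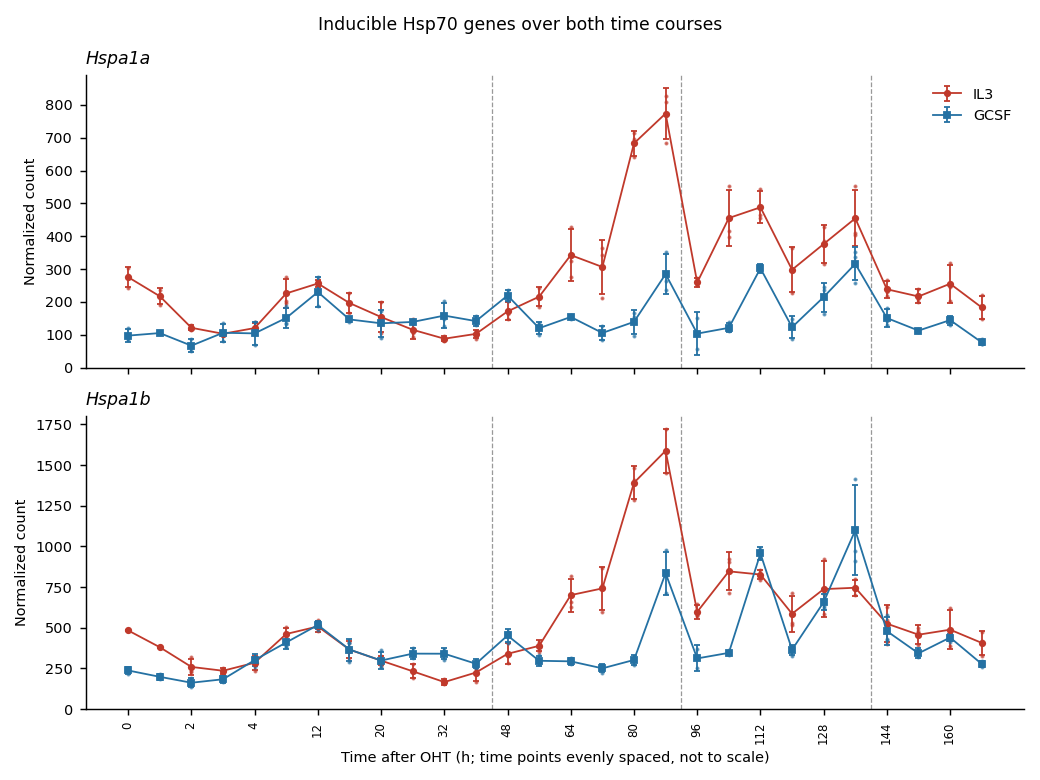
Normalized count of *Hspa1a* (upper panel) and *Hspa1b* (lower panel) against the time after OHT, with time points evenly spaced and not to scale; points joined by lines are group means, bars are SD, small dots are libraries, and dashed lines mark the renewals of medium. In IL3 both genes peak at 88h, at 774 and 1588, and in GCSF they peak at 88h, 112h and 136h.

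Over all consecutive time points of the IL3 course, 19 of 250 pairs of member and step were called, which is 7.6% where 3.65% of the pairs of all genes were; 13 of the 19 belonged to *Hspa1a* or *Hspa1b*. Over the GCSF course it was 24 of 270, or 8.89% where 1.81% of all pairs were, and 23 of the 24 belonged to this pair. The other members held 6 calls in IL3 and 1 in GCSF. Both shares lie above those of all genes only through *Hspa1a* and *Hspa1b*, near-identical genes counted as 2 members. At the GCSF steps from 1h to 2h, 2h to 3h, 3h to 4h and 8h to 12h, 1 gene of the pair was called and the sum was not. Without the replicates numbered 3 the 24 were 15, and without the 120h libraries 19. Leaving out 120h also removes the steps into and out of it, which held 2 and 3 of the calls. The lower count is therefore no test of those libraries. The call in GCSF outside the inducible pair was *Hspd1* from 120h to 128h (-0.69, standard error 0.073, adjusted p = 1.40e-12 by limma). The step from 24h to 32h, at which the harvest changed to trypsin, held 0 of 10 members by limma in either course, where 0.356% of genes were called in IL3 and 0.172% in GCSF; 4 and 1 members had an unadjusted p under 0.05, edgeR called 0 and 0, and DESeq2 0 and 0. The summed immediate-early genes were 7769 to 8747 at 24h and 32858 to 35584 at 32h in IL3, and 5135 to 5395 and 13394 to 15645 in GCSF.

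At 168h *Hspa1a* was lower in GCSF than in IL3, by -1.23 (standard error 0.22, limma adjusted p = 7.55e-07), as was the sum with *Hspa1b* (-0.72). The GCSF libraries of 168h read 71.8, 86.1 and 72.7, -1.83 against undifferentiated cells (standard error 0.22, adjusted p = 1.50e-12 by limma), and *Hspa1b* read 259, 279 and 295, a change of -0.80 (standard error 0.15, adjusted p = 2.58e-06); the sum changed by -1.10, called. All 6 values lay below the lowest undifferentiated library of their gene. Against GCSF 0h, where the pair was already low, neither was called: the change was -0.32 (standard error 0.22, limma adjusted p = 0.235) for *Hspa1a* and 0.23 (standard error 0.15, limma adjusted p = 0.231) for *Hspa1b*, and 0.08 (standard error 0.15, limma adjusted p = 0.682) for the sum. The change from the start of OHT to 168h differed between the cytokines by 0.49 (standard error 0.22, limma adjusted p = 0.0570) for *Hspa1b*, not called, and by 0.71 (adjusted p = 0.0116), called, without the replicates numbered 1. In between, over the mean of 12h to 72h, *Hspa1a* was the 1 member of 10 called in GCSF (0.63, standard error 0.16, limma adjusted p = 7.02e-04 against GCSF 0h), where 12% of genes were; the sum did not pass the fold change (0.54, standard error 0.11, limma adjusted p = 1.38e-05). Without the replicates numbered 1, *Hspa1a* was at 0.54 (adjusted p = 0.0298) and not called. Per kilobase of transcript, the ratio of *Hspa1b* to *Hspa1a* was 1.68 to 2.13 in undifferentiated cells and 3.43 to 4.30 at GCSF-OHT 168h. These ranges do not overlap, but how reads were divided between the near-identical genes is not known.

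*Hspa8*, the constitutive Hsp70 that folds new proteins in every cell, had a sharp maximum 8h after OHT in IL3. Undifferentiated libraries read 14226, 15162 and 13889, and those of 4h 20513, 18846 and 20125. The libraries of 8h read 36992, 32756 and 35675, followed by 19603, 21595 and 19126 at 12h. All 3 of 8h lay above every other library of the series. The step from 4h to 8h was 0.82 (standard error 0.063, limma adjusted p = 2.68e-22), and 0.83 for the sum with *Gm15459*, and the step from 8h to 12h was -0.81 (standard error 0.063, limma adjusted p = 3.57e-21), and -0.79 for the sum. In GCSF the 3 libraries of 8h read 14108, 15915 and 14181, against 13618, 12745 and 13560.2 at GCSF 0h.

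Of the 10 members, 6 rose from 4h to 8h in IL3, where 10.5% of genes were called and 4.86% were higher. Beside *Hspa8* and the inducible pair (*Hspa1a* 0.89, *Hspa1b* 0.70, their sum 0.76), these were *Hspe1* (0.82, standard error 0.077, limma adjusted p = 8.33e-17), *Hspd1* (0.65, standard error 0.073, limma adjusted p = 3.87e-13) and *Hsp90ab1* (0.59, standard error 0.037, limma adjusted p = 3.24e-28). The means of *Hspd1* were 3847, 4420.2, 5293 and 6377 at 1h to 4h. *Hsph1*, the Hsp110 that exchanges nucleotide on Hsp70, reached its highest mean at 8h too, 2057 ± 65.2 (SD, n = 3) after 1397 ± 77.6 (SD, n = 3) at 4h, and its step passed the adjusted p and not the fold change (0.56, standard error 0.075, limma adjusted p = 3.45e-10). Over the same step in GCSF limma called 0 of 10, where 5.29% of genes were called; 8 members had an unadjusted p under 0.05, and edgeR and DESeq2 called 0 and 0. Of 70 other chaperone and co-chaperone genes listed, 3 were called from 4h to 8h in IL3, 2 of them higher: the Hsp90 co-chaperones *Fkbp4* (0.64, standard error 0.053, limma adjusted p = 7.19e-20) and *Ahsa1* (0.59, standard error 0.047, limma adjusted p = 4.08e-21). The summed immediate-early genes were 13733 to 14592 at 4h and 10744 to 11854 at 8h in IL3, and their part in the result was not tested.

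*Hspa8* fell over the IL3 course. In IL3-OHT 168h its libraries read 9354, 9394 and 9384, the lowest mean of all groups and -0.62 against undifferentiated cells (standard error 0.063, adjusted p = 8.33e-16 by limma; -0.59 (standard error 0.058, limma adjusted p = 1.09e-16) for the sum with *Gm15459*). In GCSF-OHT 168h they read 10137, 10558 and 11227, -0.44 (standard error 0.063, adjusted p = 8.73e-10), which did not pass the fold change. *Hsph1* read 1144, 1104 and 1172 in undifferentiated cells, 876, 852 and 832 at IL3-OHT 168h and 934, 995 and 993 at GCSF-OHT 168h, with no overlap between the start and either end, and its log2 fold changes of -0.42 and -0.23 did not pass the fold change. Its lowest mean was at 2h in GCSF, 708 ± 50.3 (SD, n = 3), and over 1h to 8h it was higher in IL3 than in GCSF at 2h, 3h, 4h and 8h by the test at each time point.

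The 2 Hsp90 genes ended at different ratios in the 2 cytokines. *Hsp90ab1* read 39836, 41924 and 39805 in undifferentiated cells, and GCSF 0h libraries read 32663, 33295 and 34475. At 168h it read 32138, 33517 and 32174 in IL3 and 18834, 18737 and 18967 in GCSF. The 4 groups did not overlap except for GCSF 0h and IL3-OHT 168h. At 168h against undifferentiated cells it changed by -1.10 (standard error 0.037, limma adjusted p = 1.65e-53) in GCSF, a 2.15-fold fall, and by -0.31 (standard error 0.037, limma adjusted p = 9.22e-13) in IL3, which did not pass the fold change; from GCSF 0h to 168h it fell by 0.83 on the log2 scale (standard error 0.037, adjusted p = 1.94e-41 by limma). Its highest means were at 12h and 8h in IL3, 62174 ± 1056 (SD, n = 3) and 61462 ± 2623 (SD, n = 3), and its lowest was the last time point in GCSF, 18846 ± 115.4 (SD, n = 3).

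*Hsp90aa1*, the stress-inducible paralog, fell in IL3. Undifferentiated libraries read 19971, 22442 and 22620.3, those of 72h in IL3 18058, 18509 and 18181, those of 136h 10799, 11669.5 and 10596, and those of 168h 10817, 12863 and 11577. All libraries of 72h, 136h and 168h lay below the undifferentiated ones, and at 168h the change was -0.88 (standard error 0.066, limma adjusted p = 7.65e-24). In GCSF the libraries of 0h read 16246, 17209.6 and 17230.2, those of 8h 13886, 13508 and 13977, those of 40h 22705, 21099 and 21919, and those of 168h 14539, 14932 and 14124. The change from GCSF 0h to 168h was -0.22 (standard error 0.066, limma adjusted p = 0.00320), and against undifferentiated cells -0.58 (standard error 0.066, limma adjusted p = 1.24e-13), just inside the fold threshold and not called; without the replicates numbered 1 it was -0.63 (adjusted p = 1.72e-09), and called. The change to 168h differed between the cytokines by 0.67 (standard error 0.093, limma adjusted p = 7.67e-10) for *Hsp90aa1*, called, and by -0.52 (standard error 0.052, limma adjusted p = 1.48e-15) for *Hsp90ab1*, not called. Per kilobase of transcript, the ratio of *Hsp90ab1* to *Hsp90aa1* was 2.29 to 2.60 in undifferentiated cells. It was 3.39 to 3.87 at IL3-OHT 168h and 1.63 to 1.75 at GCSF-OHT 168h, and the 3 ranges do not overlap. The 2 genes share 0.0957% of the 31-base words of *Hsp90ab1*, so that few reads could be divided between them. At GCSF-OHT 104h, the libraries of *Hsp90aa1* stood apart from one another (17588, 16179.9 and 22572).

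*Dnajb1*, the J-domain partner of the cytosolic Hsp70 proteins and a classical target of Hsf1, was at its highest 1h after OHT in IL3 and fell by 2h. Its libraries read 1865, 1999 and 1854 in undifferentiated cells, 2601, 2738 and 2655 at 1h and 1205, 1148 and 1051 at 2h. The libraries of 1h were the highest of all groups and those of 2h lay below the start. The step to 1h was 0.48 on the log2 scale and did not pass the fold change, and the step from 1h to 2h was -1.23 (standard error 0.049, limma adjusted p = 4.39e-45). The summed immediate-early genes moved in the same hours, with 29935 to 31084 in undifferentiated cells, 55085 to 58220.0 at 1h and 11964 to 14901 at 2h, and their part in the result was not tested. In GCSF *Dnajb1* read 1173, 1256 and 1342 at 0h and 1436, 1489.9 and 1439 at 1h, with summed immediate-early genes of 4529 to 4980.2 and 16609.6 to 19369.

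After the pre-treatment *Dnajb1* differed from undifferentiated cells by -0.60 (standard error 0.049, limma adjusted p = 1.75e-21). Without the replicates numbered 1 or 2 it differed by -0.57 (limma adjusted p = 9.28e-13) and -0.57 (limma adjusted p = 3.43e-12), inside the fold threshold. In GCSF its libraries then read 1928 and 1977 at 112h and 1555, 1474 and 1392 at 168h. At 168h it differed from undifferentiated cells by -0.54 (standard error 0.049, limma adjusted p = 2.29e-18) in IL3 and by -0.37 (standard error 0.049, limma adjusted p = 4.53e-11) in GCSF, neither called; without the replicates numbered 3 the former was -0.58 (adjusted p = 4.42e-13) and just called. The change from the start of OHT to 168h differed between the cytokines, by 0.77 (standard error 0.069, limma adjusted p = 2.60e-18), as did the change over 1h to 8h, by 0.61 (standard error 0.054, limma adjusted p = 1.87e-18); the latter was 0.58 (adjusted p = 9.76e-11) without the replicates numbered 1 and 0.57 (adjusted p = 5.58e-10) without those numbered 2, inside the fold threshold. At 22 of the 25 time points shared by both courses, *Dnajb1* was higher in GCSF, and at 1h, the 1 time point at which it was called, lower (-0.87, standard error 0.049, adjusted p = 5.80e-33 by limma).

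The mitochondrial chaperonin *Hspd1* (Hsp60) and its lid *Hspe1* (Hsp10), which fold proteins imported into the matrix, fell in GCSF after OHT. After the pre-treatment they were near their start: *Hspd1* read 3788, 4320.4 and 4461 in undifferentiated cells and 4151, 4137 and 4103 at GCSF 0h, and *Hspe1* 1146, 1147 and 1190.0 and 1078, 1175 and 1229, ranges that overlap. Their lowest means were at 128h, 1694 ± 88.98 (SD, n = 3) for *Hspd1* and 454 ± 37.7 (SD, n = 3) for *Hspe1*. At 168h the libraries read 2468, 2619.7 and 2629 for *Hspd1* and 601, 756 and 627 for *Hspe1*. No library of 168h overlapped with GCSF 0h. From GCSF 0h to 168h *Hspd1* changed by -0.68 (standard error 0.073, limma adjusted p = 9.26e-15) and *Hspe1* by -0.82 (standard error 0.077, limma adjusted p = 1.92e-17).

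In IL3 the 2 genes came apart at the end. At 168h *Hspd1* read 3063, 3363 and 3142, below every undifferentiated library, and *Hspe1* 1479.8, 1365 and 1387, above every one; the changes of -0.39 (standard error 0.073, limma adjusted p = 1.98e-06) and 0.28 (standard error 0.077, limma adjusted p = 0.00122) did not pass the fold change. The change to 168h differed between the cytokines by -1.10 (standard error 0.11, limma adjusted p = 6.16e-16) for *Hspe1*, one of 3 members of 10 called in that test, where 25.7% of genes were, and by -0.29 (standard error 0.10, limma adjusted p = 0.0147) for *Hspd1*, not called. Per kilobase, the ratio of *Hspd1* to *Hspe1* was 1.06 to 1.20 in undifferentiated cells, 0.661 to 0.787 at IL3-OHT 168h and 1.11 to 1.34 at GCSF-OHT 168h. The range in IL3 lay below the other 2. The first 8 hours also differed between the cytokines for *Hspd1* (-0.63, standard error 0.080, adjusted p = 7.45e-11 by limma). At 8h it read 10004, 10268 and 9720.1 in IL3 and 2829.9, 2856 and 3137 in GCSF. Without the replicates numbered 1 it was -0.54 (adjusted p = 3.33e-05), inside the fold threshold. The genes overlap head to head by 112 bases, a stretch in which reads can be counted for either.

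*Hsf1*, the regulator, was the least variable member. Undifferentiated libraries read 1057, 976 and 929, and GCSF 0h libraries 821, 772 and 816. The libraries of 168h read 739.9, 732 and 707 in IL3 and 637, 596 and 609 in GCSF. The undifferentiated libraries were above all others of these 4 groups. Its change at 168h was called in GCSF (-0.68, standard error 0.082, limma adjusted p = 1.30e-12) and not in IL3 (-0.44, standard error 0.082, limma adjusted p = 1.92e-06). Over the IL3 course it ranged from a mean of 570.3 ± 60.6 (SD, n = 3) at 104h to one of 1091 ± 81.8 (SD, n = 3) at 4h. RNA levels say nothing of the activation of Hsf1, which is a matter of its trimers and their modification.

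**Figure D3:**
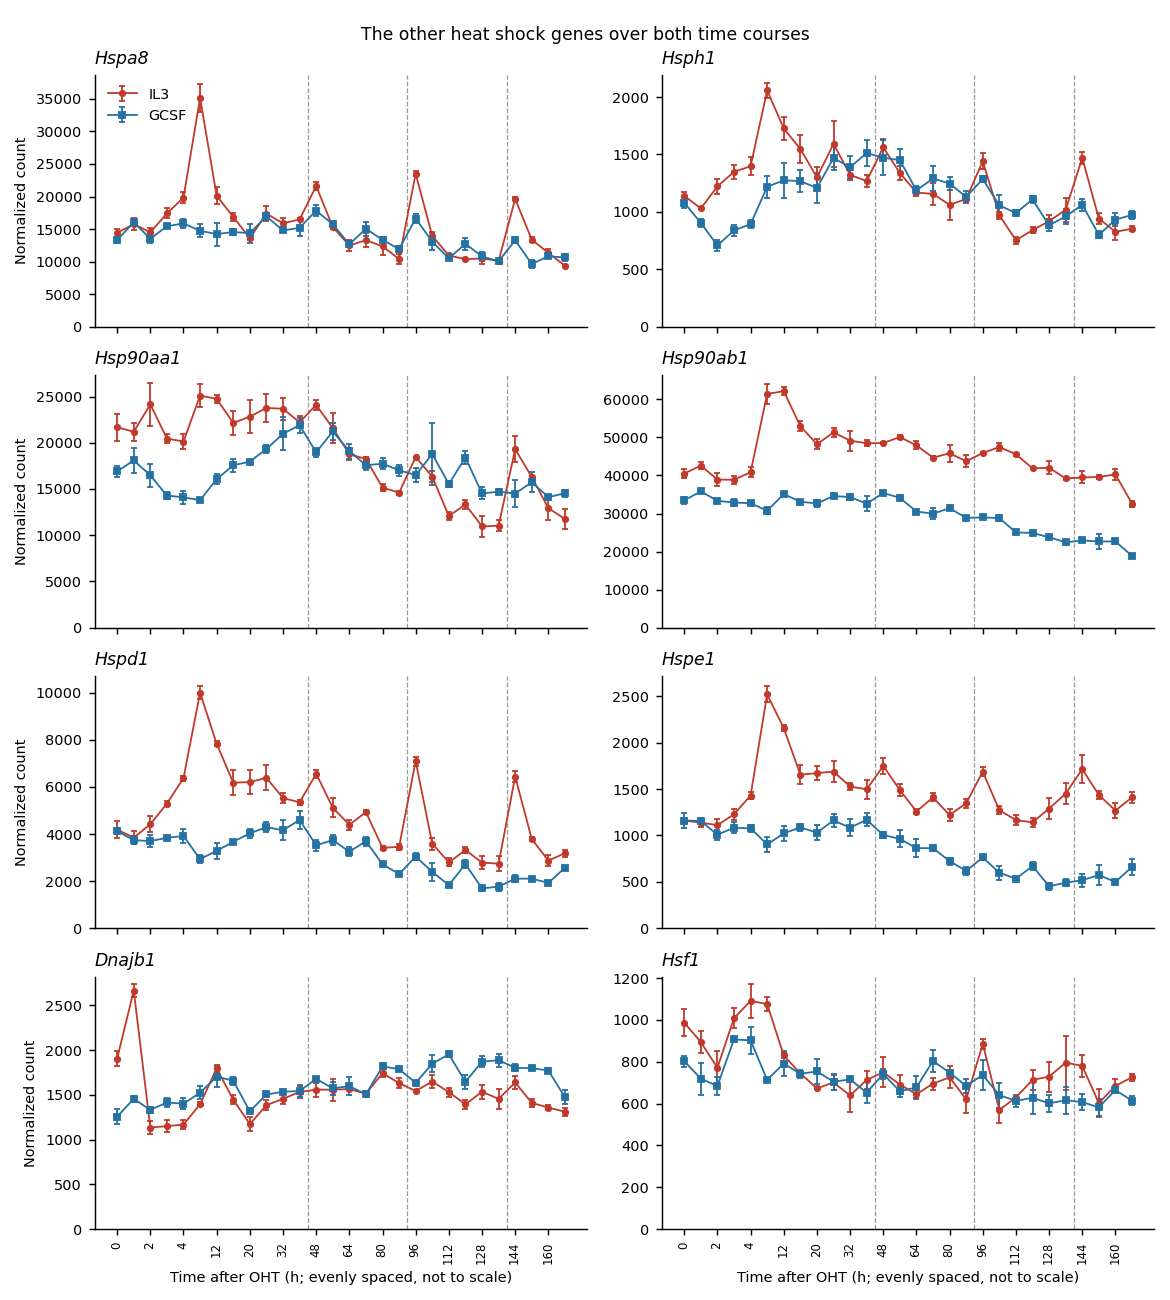
Normalized counts of the 8 other members against the time after OHT (evenly spaced, not to scale), 1 panel a gene, with group means joined by lines and SD as bars; dashed lines mark the renewals of medium. In IL3, *Hspa8*, *Hsph1*, *Hspd1* and *Hspe1* are highest at 8h, *Hspa8* and *Hspd1* stand above their neighbours at 48h, 96h and 144h, and *Hsp90ab1* is lowest in GCSF at 168h, at 18846.

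The first samples after each renewal of medium and OHT, at 48h, 96h and 144h, were compared with the mean of the time points on either side. The study set aside the 6 libraries of 96h and 144h in IL3. In the main tests they are used only for this question, while levels, spreads and orders of group means include them. At 96h in IL3, *Hspa8* read 23118, 23879 and 23492, beside 9689, 10339 and 11181 at 88h and 14558, 13336 and 13935 at 104h, and *Hspd1* read 7319, 6976 and 6989, beside 3327, 3522 and 3524 and 3375, 3538 and 3859. For both genes every library of 96h lay above all of its neighbours. The differences were 0.97 (standard error 0.054, limma adjusted p = 2.44e-33) for *Hspa8*, 0.94 for its sum with *Gm15459*, and 1.01 (standard error 0.063, limma adjusted p = 9.95e-30) for *Hspd1*. The inducible pair went the other way, *Hspa1a* by -1.18 (standard error 0.19, limma adjusted p = 3.59e-08), *Hspa1b* by -0.95 (standard error 0.13, limma adjusted p = 9.18e-10) and their sum by -1.03. Both had been at the peak of their course at 88h. These were 4 of 10 members called, where 17.5% of genes were. *Hsf1* was 0.58 (standard error 0.071, limma adjusted p = 3.65e-12), not called, and 0.60 (adjusted p = 1.06e-08), called, without the replicates numbered 3.

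At 144h in IL3, 3 of 10 members were called, all higher, where 15.4% of genes were: *Hspd1* (1.00, standard error 0.063, limma adjusted p = 3.46e-29), *Hspa8* (0.76, standard error 0.054, limma adjusted p = 3.05e-25; 0.72 for the sum with *Gm15459*) and *Hsph1* (0.59, standard error 0.064, limma adjusted p = 2.95e-14), the last at 0.57 (adjusted p = 2.28e-08) and not called without the replicates numbered 3. At 48h in IL3 limma called 0 of 10, where 1.6% of genes were; *Hspa8* was 0.44 (standard error 0.054, limma adjusted p = 1.79e-10) and *Hspd1* 0.33 (standard error 0.063, limma adjusted p = 4.49e-05), 5 members had an unadjusted p under 0.05, and edgeR and DESeq2 called 0 and 0. Over the IL3 course *Hspd1* had its highest means at 8h, 12h, 96h, 48h and 144h. The means of 24h and 4h were close behind, 6389 and 6377 beside 6441 at 144h, and their libraries overlapped with those of 144h. The summed immediate-early genes were 39642 to 44627 at 96h, beside 27391 to 30466 at 88h and 25518 to 31453 at 104h, and 42092 to 46748 at 144h, beside 22888 to 28033 and 25792 to 29162; at 8h, where *Hspa8* and *Hspd1* were highest, they were 10744 to 11854. Their part in the results at 96h and 144h was not tested. *Hsp90ab1* stayed within -0.02 to 0.01 of its neighbours at the 3 time points in IL3.

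In GCSF the members called after a renewal were the inducible pair. At 48h 2 of 10 members were called, where 0.35% of genes were: *Hspa1a* (0.75, standard error 0.19, limma adjusted p = 0.00488) and *Hspa1b* (0.65, standard error 0.13, limma adjusted p = 4.86e-04) were higher, as was their sum (0.68). *Hspa1a* was 0.80 (adjusted p = 0.0607) without the replicates numbered 1 and 0.79 (adjusted p = 0.0715) without those numbered 3, and *Hspa1b* 0.56 (adjusted p = 0.0473) without those numbered 2, none of them called by limma. At 96h the same pair was lower (-0.98, standard error 0.22, limma adjusted p = 1.94e-04 and -0.80 (standard error 0.16, limma adjusted p = 1.92e-05)), 2 of 10 where 4.65% of genes were called, in a group of 2 libraries that differed from each other (149.95 and 56.9 for *Hspa1a*). The sum changed by -0.84, called. The neighbour at 88h was a peak of the pair in GCSF, with means of 285 for *Hspa1a* and 836 for *Hspa1b*. The libraries of 96h overlapped with those of 104h for both genes. With only the groups compared in the fit, *Hspa1a* at 96h was -0.98 (adjusted p = 0.174) by limma and not called. At 144h limma called 0 of 10, where 1.85% of genes were; 3 members had an unadjusted p under 0.05, and edgeR and DESeq2 called 0 and 0. *Hspa8* was above its neighbours after all 3 renewals in GCSF, by 0.21, 0.41 and 0.43, without passing the fold change.

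**Figure D4:**
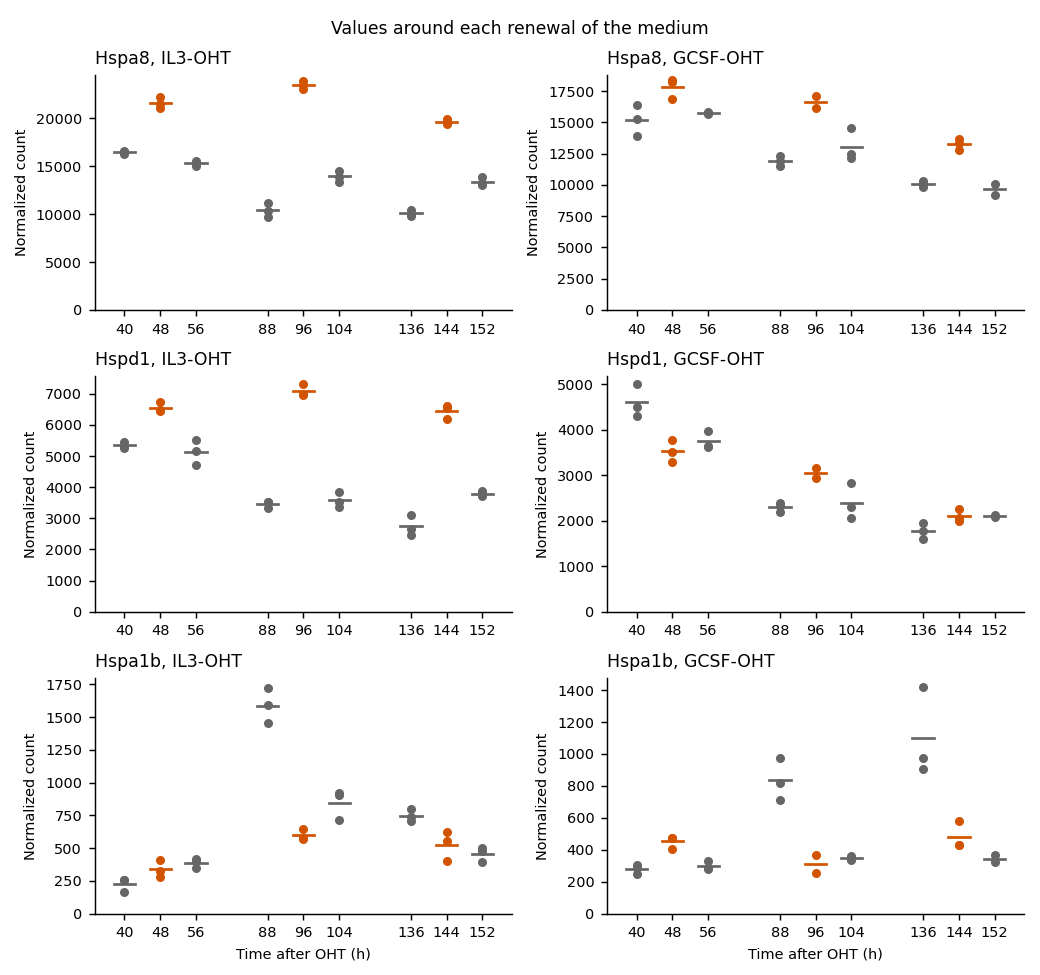
Normalized counts of *Hspa8*, *Hspd1* and *Hspa1b* in the libraries around the renewals of medium at 40h, 88h and 136h, in IL3 (left) and GCSF (right); dots are libraries, bars are group means, and the first time point after a renewal is in orange. In IL3, *Hspa8* and *Hspd1* stand above both neighbours at 48h, 96h and 144h, and *Hspa1b* falls from its peak at 88h.

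Over the mean of the 25 time points shared by both courses, 4 of 10 members were lower in GCSF and none was called higher, where 24.5% of genes were called and 15.1% were lower. These were *Hspe1* (-0.81, standard error 0.016, limma adjusted p = 1.29e-79), *Hspa1a* (-0.68, standard error 0.045, limma adjusted p = 1.21e-28), *Hsp90ab1* (-0.62, standard error 0.0075, limma adjusted p = 2.39e-101) and *Hspd1* (-0.59, standard error 0.015, limma adjusted p = 2.05e-67). Without the replicates numbered 1 or 2, *Hspd1* was at -0.58 (adjusted p = 3.40e-38) and -0.57 (adjusted p = 1.44e-39) by limma, at the fold threshold and not called. *Hspa1b* did not pass the fold change (-0.34, standard error 0.031, limma adjusted p = 7.53e-19), and nor did the sum of the pair (-0.44, standard error 0.030, limma adjusted p = 1.24e-27). By time point, 75 of 250 pairs of member and time point were called, 30% where 22.7% of the pairs of all genes were, 73 of them lower in GCSF where 12.7% of all pairs were. *Hspe1* was lower at 17 of 25 time points, *Hsp90ab1* at 13 and *Hspd1* at 12, and the last 2 were below IL3, called or not, at 25 of 25. *Hspa1a* was lower at 14 and higher at 1, and *Hspa1b* lower at 8 and higher at 1. At 56h, 112h, 128h, 152h and 160h *Hspa1a* was called lower and the sum of the pair was not called.

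The most members were called at 8h, and the inducible pair differed most at 80h. At 8h 7 of 10 members were called, all lower in GCSF, where 25.6% of genes were called and 13.5% were lower: *Hspd1* by -1.77, *Hspe1* by -1.48, *Hspa8* by -1.25 (-1.20 for the sum with *Gm15459*), *Hsp90ab1* by -0.999, *Hsp90aa1* by -0.86, *Hsph1* by -0.76 and *Hsf1* by -0.59 on the log2 scale (the largest limma adjusted p was 4.22e-10). At 80h 3 of 10 were called, where 24.8% of genes were: *Hspa1a* read 166, 96.8 and 154.6 in GCSF and 713, 696 and 639.9 in IL3 (-2.32, standard error 0.22, limma adjusted p = 2.43e-17), *Hspa1b* 315, 322 and 269.5 and 1411, 1481 and 1283 (-2.20, standard error 0.15, limma adjusted p = 1.13e-25; -2.23 for the sum), and *Hspe1* differed by -0.75. At 32h, where the pair was at its lowest in IL3, it was higher in GCSF (0.82 for *Hspa1a*, standard error 0.22, adjusted p = 0.00153 by limma; 1.03 for *Hspa1b*, standard error 0.15, adjusted p = 1.06e-08; 0.97 for the sum), the 2 calls of 75 in that direction.

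**Figure D5:**
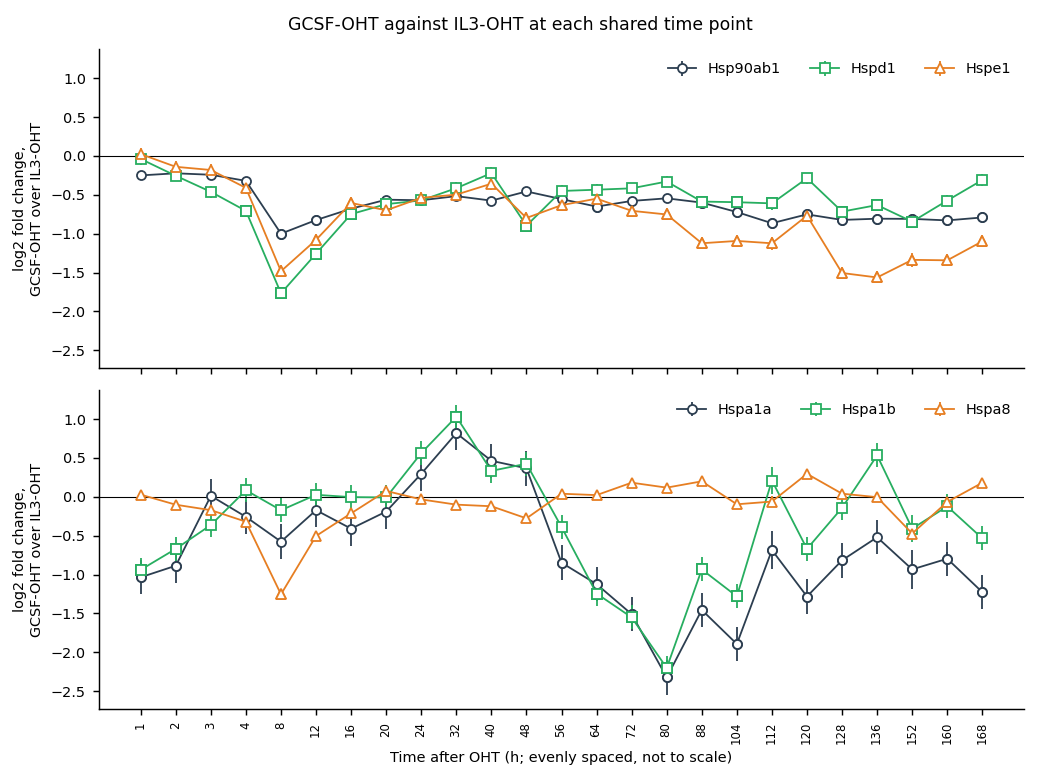
Log2 fold change of GCSF-OHT over IL3-OHT at each of 25 shared time points (evenly spaced, not to scale) for *Hsp90ab1*, *Hspd1* and *Hspe1* (upper panel) and *Hspa1a*, *Hspa1b* and *Hspa8* (lower panel); bars are standard errors of limma. *Hsp90ab1* and *Hspd1* lie below 0 at every time point, with *Hspd1* at -1.77 at 8h, and *Hspa1a* and *Hspa1b* are lowest at 80h.

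The other chaperone genes listed, 70 in number and all tested, were set beside the members. After the pre-treatment 14 of 70 were called, 4 higher and 10 lower, where 33.7% of all genes were called and 20.7% were lower. Among the lower were the Hsp70 co-chaperone and classical stress gene *Bag3* (-2.05), the mitochondrial Hsp70 *Hspa9* (-1.29) and the J-domain proteins *Dnajb5* (-1.60) and *Dnajb2* (-1.46), and among the higher the Hsp90 co-chaperones *Ahsa1* (0.69) and *Fkbp4* (0.65), all as log2 fold changes. The median of the 70 was -0.09 beside -0.09 over all genes. At 168h in IL3 13 were called, 4 higher and 9 lower, where 25.4% of all genes were called and 15.2% were lower, with a median of -0.10 beside -0.03, and at 168h in GCSF 25, 4 higher and 21 lower, where 39.1% and 23.6% were, with a median of -0.34 beside -0.11. The counts of the single lists in GCSF stand beside the same shares of all genes. The mitochondrial list gave 5 of its 10 other genes, 4 of them lower, with *Hspa9* at -1.75 (standard error 0.046, limma adjusted p = 2.68e-64) and the protease *Lonp1* at -1.19 (standard error 0.070, limma adjusted p = 6.87e-32); the list of TRiC/CCT and prefoldin, the cytosolic chaperonin and its partner, gave 6 of 14, all lower, with *Cct2* at -0.88 (standard error 0.042, limma adjusted p = 1.38e-39). Of the other lists, the Hsp70 family gave 3 of 6 other genes, all lower, the J-domain co-chaperones 2 of 11 and the nucleotide exchange factors 2 of 7, all lower, the Hsp90 co-chaperones 3 of 14 with 2 higher, and the small heat shock proteins 2 of 4, both lower. In the list of heat shock factors and regulators of Hsf1, *Hsf2*, another heat shock factor, rose in both cytokines, by 0.78 in IL3 and 1.34 in GCSF. That list also held a gene called lower in GCSF at 168h, whose mean was too low for it to be named.

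The genes most like a member over 54 means of cytokine and time point were found by Pearson's r of log2 values among 9921 genes, as a description over points that share libraries, starting cells and plates. *Hspd1* was most like *Cct8* (r = 0.981), *Farsb* (0.972) and *Pitrm1* (0.958), and *Hspe1* was most like *Cfdp1* (0.955), *Npm1* (0.950) and *C1qbp* (0.941). *Hsp90ab1* was most like *Tcp1* (0.951), *Bag2* (0.942) and *Cct5* (0.939), of which *Tcp1* and *Cct5* encode subunits of the TRiC chaperonin, as do *Cct8* and the *Cct3* that followed *Gm15459* and *Mrpl21* for *Hspa8* (0.871). *Hsp90aa1* was most like *Ube2n* (0.894), *Hsf1* like *Dhx37* (0.898), *Hsph1* like *Sltm* (0.796) and *Dnajb1* like *Hes6* (0.796). *Hspa1a* and *Hspa1b* were more like each other (r = 0.929, with reads that can be divided between them) than like their nearest other genes, *Gmppa* (0.820) and *Trim46* (0.775).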

How the data were processed

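Poly(A) RNA of PUER cells was sequenced in 165 libraries in 56 groups of cytokine and time point, 53 of 3 libraries and 3 of 2 (those of 96h, 112h and 152h in GCSF-OHT). Transcript abundance was estimated by the authors with Salmon against GRCm38, and they divided gene counts by DESeq2's median-of-ratios size factors, so that the deposited values are a signal of normalized counts; how transcripts were brought to genes and the version of Salmon are not given in the sources used here. Every value was a whole multiple of the worth of 1 read in its library (100.0% within 1e-06), which gave the reads back. Depth was 14600246 to 33147945 reads per library, and floors cover counting error only.

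The members and gene lists were chosen with earlier results of these data known. Genes that reached 5 normalized counts in 1 library or more entered limma (3.58.1, R 4.3.3) on log2(normalized count + 1) with a mean-variance trend, 1 mean per group and Benjamini-Hochberg adjustment within a comparison (17414 genes, 159 libraries). IL3-OHT 96h and 144h, left out by the authors, entered a second fit of 165 libraries and 17439 genes for the renewals of medium. Alternatives were edgeR (4.0.16) and DESeq2 (1.42.0) on the recovered reads, pseudocounts of 0.5 and 5, no filter, a mean of at least 10, upper-quartile scaling, only the groups compared, unlogged means for the likeness of genes, each replicate number left out, and the number as a block. Leaving out the 120h libraries and testing single time points were chosen after seeing the data. All 10 members were described; of each other list, at most 2 genes per direction with the largest change and a mean of at least 50, and for likeness the 3 genes with the highest r and a mean of at least 100. The titles of the GCSF 0h libraries name OHT, while their descriptions and the methods place them before it; they were used as the start. The scripts were tested on simulated data. Sequences are from RefSeq (GRCm38.p6); protein sequences were not used here.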

Additional observations from a re-analysis of the deposited data

Results flagged for a closer look

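Among the members, 7 differences between the cytokines passed a test of the difference itself (GCSF minus IL3, each against its own start, limma, Benjamini-Hochberg over all genes). For the change to 168h these were 3 of 10, where 25.7% of all genes were called: *Hsp90aa1* at 0.67, *Dnajb1* at 0.77 and *Hspe1* at -1.10 on the log2 scale, with adjusted p = 7.67e-10, 2.60e-18 and 6.16e-16 by limma. For the change over 1h to 8h they were 4 of 10, where 10% of all genes were called: *Hspa1a* at 0.95, *Hspa1b* at 0.61, *Dnajb1* at 0.61 and *Hspd1* at -0.63. The start differs between the courses, since GCSF 0h follows the pre-treatment, and the dose of OHT differs with the cytokine, so that these cannot be told apart from the cytokine.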

How the results depend on the processing

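No result changed direction past the threshold under any alternative. Counts of members called that moved by more than 1.5 times were few. Without 1 replicate number at a time, the difference between cytokines over 1h to 8h held 2 to 3 members (4 with all), the GCSF change over 12h to 72h 0 to 1 (1 with all), the GCSF 48h renewal 1 each time (2 with all) and the GCSF steps 15 to 20 (24 with all), with fewer libraries in each. With only the groups compared, the GCSF 96h renewal held 1 (2 with all). By edgeR, *Dnajb1* after the pre-treatment (-0.56), *Hspa1a* at IL3-OHT 168h (-0.57) and *Hspd1* in GCSF against IL3 (-0.57) were inside the fold threshold. With upper-quartile scaling, *Hsp90aa1* at GCSF-OHT 168h (-0.63) was past it. Over all genes, the counts that moved by more than 1.5 times were those of renewals: without the replicates numbered 2, 113 genes were called at IL3 48h (279 with all), and GCSF 48h gave 23 without those numbered 1, 39 without those numbered 3 and 93 by edgeR (61 with all). By edgeR, which scales libraries by TMM, 58.5% of the genes called at IL3 48h were higher (47.3% by limma) and 55.9% at GCSF 48h (45.9% by limma). With only the groups compared, GCSF 96h and 144h gave 516 and 134 (811 and 322 in the whole fit). Replicate numbers did not pair the libraries: the mean correlation of deviations was -8.90e-05 between libraries of the same number and 7.14e-05 between those of different numbers, and with the replicate number as a block the counts of members called were the same in all 22 results (3 after the pre-treatment, 6 at GCSF-OHT 168h, 75 by time point). Depth limits *Hspa1a* most among the members, with 58 reads in its lowest library.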

Other observations

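The other chaperone genes after the renewals of medium in IL3 were not described above. Against their neighbours, 9 of 70 were called at 96h, 4 higher and 5 lower, where 17.5% of all genes were, and 10 of 70 at 144h, 5 higher and 5 lower, where 15.4% were. Among the higher were the chaperonin subunits *Cct3* (0.95 at 96h and 0.87 at 144h) and *Cct6a* (0.70 and 0.69) and the exchange factor *Hspbp1* (0.96 and 0.98). Among the lower were the small heat shock protein *Hspb6* (-1.001 and -1.05) and the Hsp110 gene *Hspa4l* (-0.90 and -0.93). Values are log2 fold changes, and the summed immediate-early genes given above for these time points were higher than at their neighbours.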
